A study of Mus musculus with 31 samples.

Results

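Cortical splicing changes of the transgenic R6/2 mouse were set against those of homozygous Q150 knock-in mice, event by event, to find the exons that responded differently in these 2 models of Huntington's disease (HD). RASL-seq served as the assay: DNA probes that anneal next to each other on either side of a known exon junction are ligated, and the ligated products are counted by sequencing. For a cassette exon, reads of the junction that leaves out the exon form the short count and reads of a junction that keeps it the long count. Exclusion is the percentage of an event's reads that are short. For the other event types short and long are the forms named so in the files, and exclusion there is the share of the short form. All events listed for both R6/2 and Q150 mice were used, which gave 1680 of the 1922 events of the series, in 1388 of 1559 genes. The R6/2 files held 63 further events and the Q150 files 105, which are not compared here.

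The comparison used 15 of the 31 mice, with 1 cortical library per mouse. R6/2 HD mice (n = 3) carry a transgene with a 5' fragment of mutant human HTT in addition to both of their own Htt alleles, and R6/2 WT mice (n = 3) are their controls without it. Q150 HOMO mice (n = 4) carry 150 glutamine codons in both copies of their own Htt gene, and the Q150 WT mice (n = 5) have 7 on each allele. The sample titles name the knock-in mice Q150 and the genotype field names them Q175, so the repeat length in the genotype field was used, and the study's sources differ on whether Q150 HOMO mice numbered 4, as in the labels. Per the study's methods the R6/2 mice were 3 months old and the Q150 mice 7 months, on different strain backgrounds, and RNA came from 1 hemisphere. Model, age, strain background and file set therefore change together and cannot be told apart in any difference between the models. Junction totals over the shared events ran from 2171709 to 3527614 per R6/2 WT mouse and from 3438725 to 4337557 per R6/2 HD mouse. They were 2970207 to 4358992 in Q150 WT and 3418794 to 5219877 in Q150 HOMO mice. All 22 pairs of mice within a group differed beyond the noise of counting, with a chi-square per degree of freedom of at least 4.30. Events were mostly cassette exons (1617), with 30 alternative 3' and 19 alternative 5' splice sites and 14 mutually exclusive exon pairs.

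Most mammalian genes make several mRNAs by including or skipping exons, a choice set by RNA-binding proteins that bind in and around the exon, and many of these proteins regulate the splicing of their own transcripts. In HD, expansion of the glutamine repeat in huntingtin is accompanied by altered splicing in brain. R6/2 mice make a short N-terminal protein from their transgene and become ill within weeks to months, while knock-in mice express the expanded protein from the mouse gene and show a slower course.

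Of 1680 events, 108 changed differently in R6/2 and Q150 HOMO mice, 6.43% of those tested. These belonged to 106 gene symbols. The measure was the R6/2 change (HD minus WT) minus the Q150 change (HOMO minus WT) of log2((short + 0.5)/(long + 0.5)), called at an adjusted p under 0.05 by limma over all 1680 events. The difference was positive, meaning more exclusion gained or less lost in R6/2, for 60 events (3.57%) and negative for 48 (2.86%). With each mouse centred on its median event the split was 74 to 32. The called differences ran from -3.2 to 2.81 and the smallest was 0.47 in size, against a median standard error of 0.34 over all events, so smaller differences than this were in general not detectable with these numbers of mice. An unadjusted p under 0.05 was found for 358 events, and without the variance trend of the fit 57 events were called. Leaving out R6/2 WT mouse 3, 4 or 6 lowered the count of called events to 71, 72 or 67. It was 75 without R6/2 HD mouse 869, 74 without Q150 WT replicate 3 and 76 without Q150 HOMO replicate 3. Without Q150 WT replicate 5 it was 113. R6/2 WT was the group with the lowest totals, although its mouse 4 had the lowest total and mouse 6 the highest, and the part of depth in the result was not tested.

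The events that differed were mainly events with a larger change in R6/2. Within the same fit 505 events (30.1%) changed in R6/2 HD mice and 386 (23.0%) in Q150 HOMO mice. These counts were 452 each under a quasi-binomial model of the counts, and 539 and 104 with the Q150 mice of the high number series alone, a fit with fewer mice. Of the 108 events, 79 were called in R6/2 only, 5 in Q150 HOMO only, 22 in both and 2 in neither. The R6/2 change was the larger in size for 101 of them, with a median size of 1.25 in R6/2 and 0.30 in Q150 HOMO on the log2 scale. Over all 1680 events the medians were 0.43 and 0.32, the R6/2 change was the larger for 1060 events, and the median standard error was 0.26 for R6/2 and 0.21 for Q150. The fitted changes had the same sign in 62 of the 108 events. By these estimates 43 gained more exclusion in R6/2, 17 gained more inclusion in R6/2, and 2 had the larger change in Q150. The signs were opposite in the other 46 (42.6%), against 513 of all 1680 events (30.5%), a share that the choice by size of the difference itself raises. The HD mice were all above or all below the WT mice of R6/2 in 102 of the 108 events, against 42.2% of all events, and Q150 HOMO and WT mice did not overlap in 29, against 18.3%, but the differences were called on these same values.

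**Figure D1:**
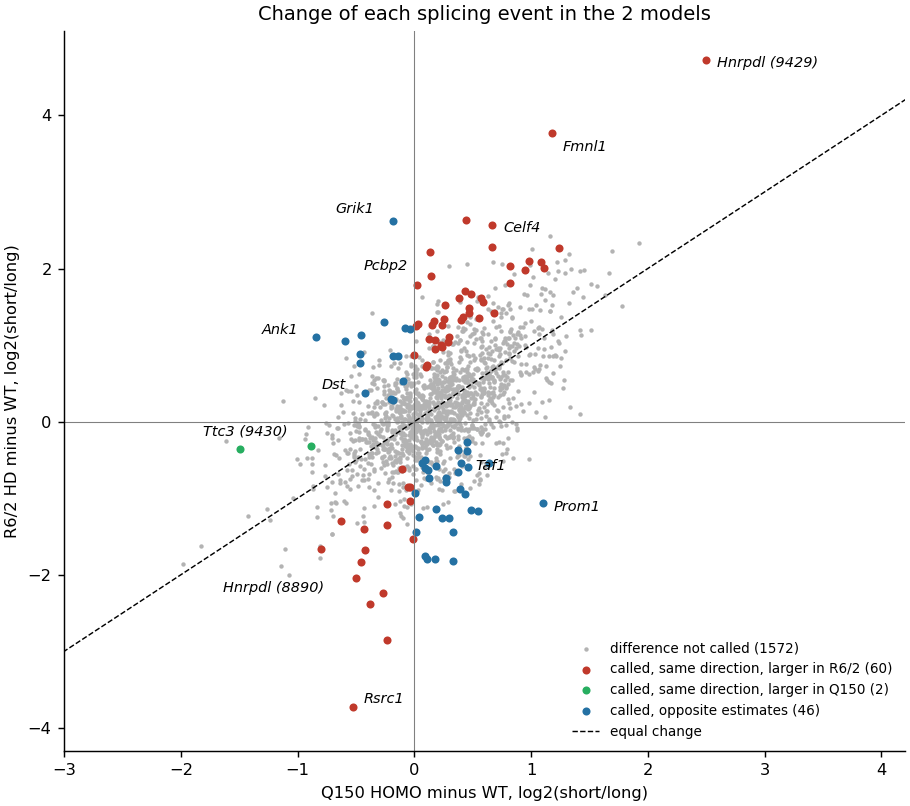
Change of the short-to-long ratio, on the log2 scale, in R6/2 HD against WT mice (vertical axis) and in Q150 HOMO against WT mice (horizontal axis), with 1 point for each of 1680 events. Coloured points are the 108 events whose changes differed between the models, of which 60 moved further in R6/2 in the same direction, 2 moved further in Q150 and 46 had opposite estimates; the dashed line marks equal change.

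Mean exclusion was higher in the mutants of both models, and the 95% interval of the difference between the models included 0. Averaged over the 1680 events it was 45.4% ± 0.0725 (SD, n = 3) in R6/2 WT mice and 47.2% ± 0.238 (SD, n = 3) in R6/2 HD mice, a gap of 1.81 percentage points. It was 45.0% ± 0.191 (SD, n = 5) in Q150 WT mice and 46.8% ± 0.434 (SD, n = 4) in Q150 HOMO mice, a gap of 1.83 points. The difference between these gaps was -0.021 points with a 95% interval from -0.662 to 0.620. The closeness of the gaps depends on the summary. As a median over events they were 2.47 points in R6/2 and 3.68 in Q150, and as a share of summed counts 2.22 and 1.71. The 95% intervals of the difference were -3.24 to 0.824 and -0.357 to 1.38. Across events the changes in the models, which share no mice, correlated with r = 0.587, a description over events and not a test. The same direction was seen in 233 of the 236 events called in both models, and for 214 of those 233 no difference between the models was called.

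The same 108 events can be split by where the models stood apart. Between R6/2 WT and Q150 WT mice 2 of 1680 events differed (0.119%), whereas 227 (13.5%) differed between R6/2 HD and Q150 HOMO mice. Of the 108 events, 95 differed between the mutant groups, 1 between the wild-type groups and 12 in neither contrast. The gap between the mutants was the larger of both gaps in 96 events. The difference of the changes is the mutant gap minus the wild-type gap, so the choice of the 108 events itself requires a large gap in one of these contrasts, and the counts are a description. These gaps are between mice of different age, strain and file set. The contrast of the mutant groups was added after the data had been seen.

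**Figure D2:**
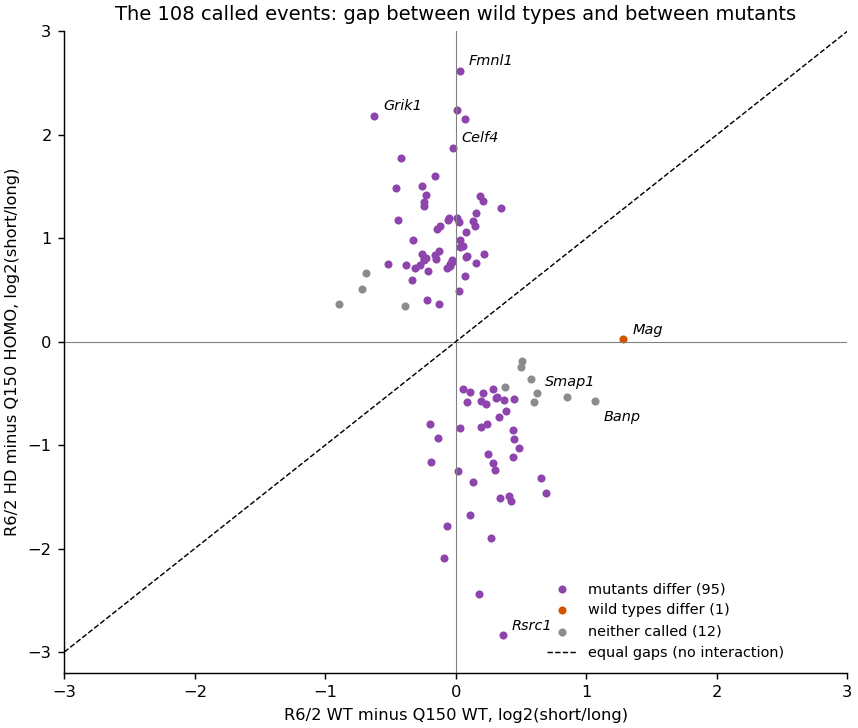
For each of the 108 events, the log2 ratio in R6/2 WT minus that in Q150 WT mice (horizontal axis) and in R6/2 HD minus Q150 HOMO mice (vertical axis). The 95 events that differed between mutants spread along the vertical axis, Mag is the single event whose gap between wild types was called and lies at 0 on the vertical axis, and the dashed line marks equal gaps.

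Genes of RNA-binding proteins held the 3 events with the smallest adjusted p, 2 in Hnrpdl and 1 in Celf4. Hnrpdl (now Hnrnpdl), which encodes an RNA-binding protein of the hnRNP family, had 2 events with differences in opposite directions. For the first (event 9429; chromosome 5, positions 100465214 to 100465880 in the files), exclusion was 0.948, 1.39 and 0.861% in R6/2 WT mice and 23.9, 19.4 and 22.5% in R6/2 HD mice. The Q150 WT mice had 1.06, 1.14, 1.04, 0.855 and 1.11% and the Q150 HOMO mice 6.01, 7.55, 5.39 and 4.03%. Every mutant mouse lay above every WT mouse in both models, and the lowest R6/2 HD mouse lay far above the highest Q150 HOMO mouse. The log2 ratio rose by 4.72 in R6/2 and by 2.5 in Q150 HOMO, a difference of 2.22 ± 0.268 (SE; adjusted p = 1.47e-05).

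The other Hnrpdl event (8890; chromosome 5, positions 100464003 to 100465122) moved toward inclusion. Exclusion was 88.4, 88.5 and 88.3% in R6/2 WT and 59.3, 71.0 and 64.1% in R6/2 HD mice, and 85.8, 87.0, 85.7, 86.6 and 85.3% in Q150 WT and 82.5, 80.2, 82.3 and 80.6% in Q150 HOMO mice. The mutants again lay apart from their WT mice in both models, by a wide gap in R6/2 and a narrow one in Q150. The log2 ratio changed by -2.04 in R6/2 and by -0.50 in Q150 HOMO, which differed by -1.54 ± 0.176 (SE; adjusted p = 8.57e-06). Totals of short and long counts were at least 4978 per mouse for the first event and at least 5725 for the second.

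Celf4 (event 8167), a neuronal RNA-binding protein of the CELF family, had the smallest p of all events. Exclusion was 93.5, 92.0 and 92.9% in R6/2 WT and 98.7, 98.6 and 98.8% in R6/2 HD mice, against 93.3, 91.6, 92.7, 92.8 and 94.1% in Q150 WT and 95.1, 95.3, 95.7 and 95.5% in Q150 HOMO mice. The wild types of both models overlapped, Q150 HOMO mice lay above them and R6/2 HD mice lay highest. Its rise of 2.57 in R6/2 exceeded that of 0.67 in Q150 HOMO by 1.90 ± 0.165 (SE; adjusted p = 1.05e-07).

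Pcbp2, a poly(C)-binding protein that acts in mRNA stability and translation, moved in R6/2 and was not called in Q150 HOMO mice. Exclusion of its event (8638; chromosome 15, positions 102318708 to 102320182) was 10.5, 9.47 and 13.2% in R6/2 WT and 29.1, 28.8 and 32.0% in R6/2 HD mice. It was 13.9, 13.7, 13.6, 10.9 and 12.4% in Q150 WT and 16.5, 11.9, 11.4 and 13.0% in Q150 HOMO mice. The R6/2 HD mice stood apart from all others, while the Q150 groups overlapped. The difference of the changes was 1.76 ± 0.236 (SE; adjusted p = 5.14e-05), from 1.79 in R6/2 and 0.02 in Q150 HOMO.

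Rsrc1, a serine and arginine rich nuclear protein of the splicing machinery, had the most negative difference. Exclusion of event 9199 (chromosome 3, positions 66800512 to 66984750) was 6.46, 6.70 and 5.92% in R6/2 WT and 2.35, 0.228 and 0.221% in R6/2 HD mice. The Q150 WT mice had 5.40, 6.29, 5.37, 4.39 and 3.99% and the Q150 HOMO mice 3.6, 3.86, 2.38 and 4.70%. The R6/2 groups did not overlap and 2 of the 3 HD mice were close to 0, while the Q150 groups overlapped. The change was -3.72 in R6/2 and -0.53 in Q150 HOMO, a difference of -3.2 ± 0.674 (SE; adjusted p = 0.00559). This SE takes a common spread for all groups, although the R6/2 HD mice spread most widely here on the log2 scale. A second Rsrc1 event (8135) had a difference of 0.18 with a 95% interval from -0.16 to 0.53 (adjusted p = 0.589).

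Rbfox2, a splicing regulator that binds near alternative exons, was counted less deeply, with totals of 23 to 83 per mouse (event 7670; chromosome 15, positions 76916585 to 76928369). Exclusion was 56.5, 55.6 and 52.8% in R6/2 WT and 81.6, 87.0 and 88.1% in R6/2 HD mice. Q150 WT mice had 48.4, 53.3, 58.2, 51.5 and 56.4% and Q150 HOMO mice 39.5, 60, 62.7 and 61.2%, of which 1 lay below all WT mice and 3 above them. The difference was 2.08 ± 0.509 (SE; adjusted p = 0.0162).

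**Figure D3:**
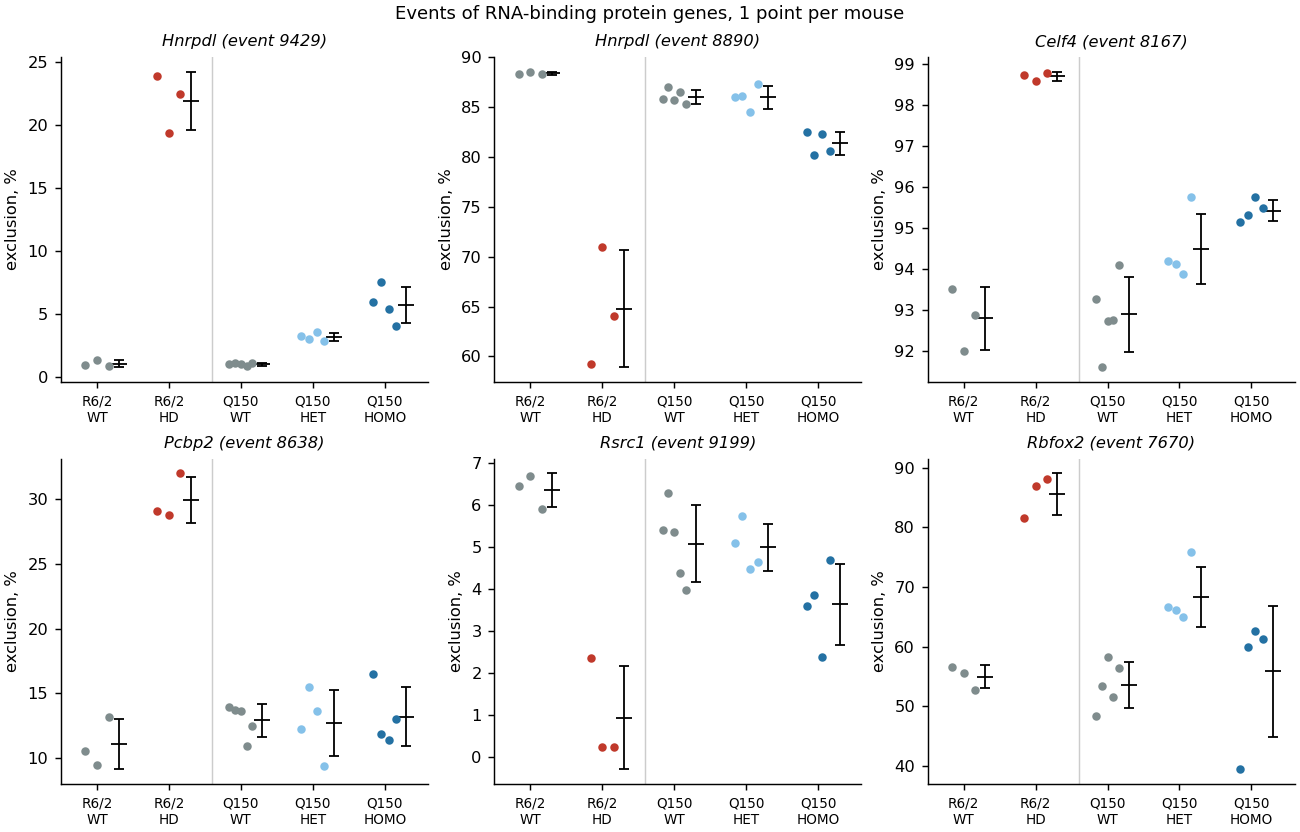
Exclusion (%) of 6 events of RNA-binding protein genes, with 1 point per mouse and the mean ± SD of each group beside its points; the Q150 HET mice, with 150 glutamines on 1 allele, are shown for reference (n = 4). R6/2 HD mice stand apart from their WT mice in all 6 panels, and Q150 HOMO mice overlap their WT mice for Pcbp2, Rsrc1 and Rbfox2.

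For the difference between the models, the list of splicing factors and RNA-binding proteins, matched to the symbols as listed, was close to the background. Of its 87 events 6 were called (6.90%, against 6.43% of all events), 4 positive and 2 negative, which are the events described above. The median difference of the list was 0.01, against -0.001 over all events, and 39 of its events changed in R6/2 (44.8%, against 30.1% of all events) and 26 in Q150 HOMO mice (29.9%, against 23.0%). Rbm5, a regulator of exon choice, shows the other side of the list. Its 2 events rose in both models, with differences of 0.33 (95% interval -0.10 to 0.76; adjusted p = 0.388) for event 3924 and -0.27 (-1.25 to 0.71; adjusted p = 0.809) for event 4353.

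In the fit used here 3 events were called in both models with opposite directions, in Dst, Taf1 and Ank1, and the count was 6 with each mouse centred on its median event and 5 with the series of Q150 mouse numbers (low or high) as a term. Their changes chose them, so the values are given as a description beside the fit. Dst (event 4084; chromosome 1, positions 34359877 to 34363372) encodes dystonin, which links cytoskeletal filaments to each other and to membrane sites. Exclusion was 77.2, 74.6 and 75.3% in R6/2 WT and 79.6, 78.5 and 82.2% in R6/2 HD mice, whereas it was 77.2, 74.1, 75.7, 76.1 and 78.2% in Q150 WT and 70.4, 67.3, 72.9 and 71.8% in Q150 HOMO mice. HD mice lay above their WT mice and HOMO mice below theirs with no overlap, from wild-type levels that overlapped. The changes were 0.37 (adjusted p = 0.0254) and -0.42 (adjusted p = 0.00452), which differed by 0.79 ± 0.161 (SE; adjusted p = 0.00433).

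Taf1 (event 8231, an alternative 3' splice site; chromosome X, positions 98734526 to 98736340) encodes the largest subunit of the general transcription factor TFIID. Exclusion was 41.5, 36.9 and 36.7% in R6/2 WT and 32.2, 30.6 and 27.3% in R6/2 HD mice, against 29.4, 33.1, 32.7, 34.2 and 33.3% in Q150 WT and 36.0, 36.4, 41.7 and 41.5% in Q150 HOMO mice. The mutants lay apart from their WT mice in both models, below them in R6/2 and above them in Q150. All 3 R6/2 WT mice lay above all 5 Q150 WT mice, a gap of 0.37 that was not called (adjusted p = 0.266). The changes were -0.54 (adjusted p = 0.0118) and 0.40 (adjusted p = 0.0285) and differed by -0.94 ± 0.205 (SE; adjusted p = 0.00708).

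Ank1 (event 9445; chromosome 8, positions 24220201 to 24221831) encodes ankyrin-1, which ties membrane proteins to the spectrin skeleton. Its short junction was rare. Exclusion was 0.998, 1.39 and 1.36% in R6/2 WT and 2.46, 2.38 and 3.28% in R6/2 HD mice, against 1.6, 1.98, 1.75, 1.33 and 2.10% in Q150 WT and 0.824, 1.16, 1.26 and 0.690% in Q150 HOMO mice. Neither model's mutants overlapped their WT mice. The changes of 1.10 (adjusted p = 0.00752) and -0.84 (adjusted p = 0.0176) differed by 1.94 ± 0.394 (SE; adjusted p = 0.00433).

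The difference between the models remained called for Dst, Taf1 and Ank1 when any 1 mouse was left out, with adjusted p of at most 0.0173, 0.0307 and 0.0173. The call of opposite directions rests on 2 tests at once and was less stable, since the number of such events was 1 without R6/2 HD mouse 869 or without Q150 HOMO replicate 4, and 5 without R6/2 HD mouse 860. In Q150 HET mice, which were compared with the same WT mice as the HOMO mice, the changes were -0.21 for Dst, 0.12 for Taf1 and -0.58 for Ank1, with adjusted p of 0.271, 0.694 and 0.249. In Q175 HOMO mice (n = 3, with 175 glutamine codons in both alleles) against their own WT mice (n = 5) they were 0.02, -0.23 and -0.23, with adjusted p of 0.938, 0.352 and 0.750.

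**Figure D4:**
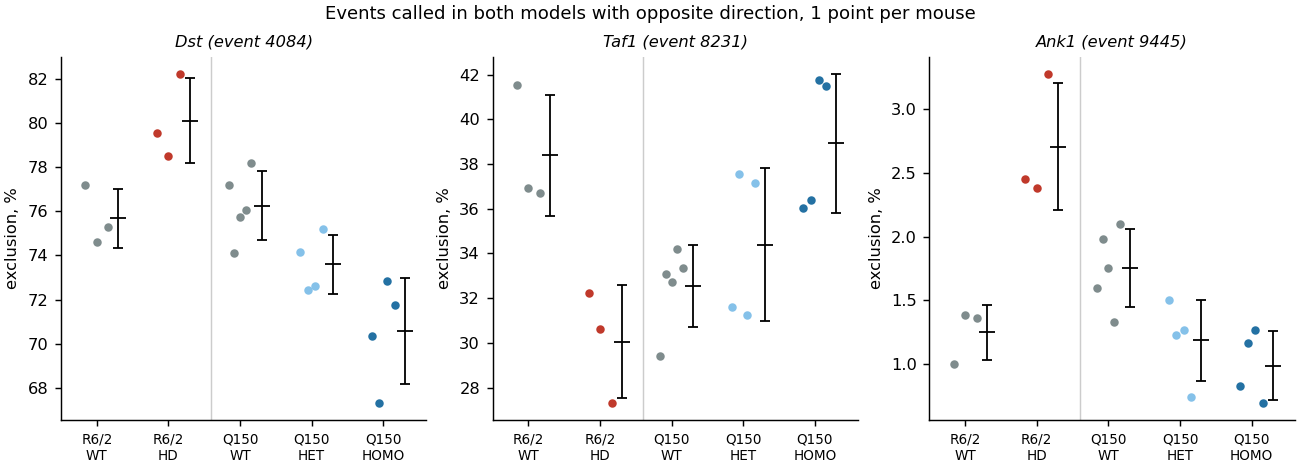
Exclusion (%) of the Dst, Taf1 and Ank1 events with 1 point per mouse and the mean ± SD of each group beside its points. HD mice lie above their WT mice for Dst and Ank1 and below them for Taf1, and Q150 HOMO mice lie on the other side of theirs in each panel.

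These 3 belong to a wider set of 46 differing events with opposite estimates. The estimates put exclusion lower in R6/2 HD and higher in Q150 HOMO mice in 31 of them, and the reverse held in 15. The R6/2 change was called in 40 of the 46 and the Q150 change in 7, and 12 had an unadjusted p under 0.05 in both models. Pam, which encodes the enzyme that amidates neuropeptides, is the clearest after the 3 events above. Exclusion of event 4623 (chromosome 1, positions 99749809 to 99780702) was 6.81, 7.33 and 6.57% in R6/2 WT and 4.82, 5.62 and 4.18% in R6/2 HD mice, and 4.48, 4.26, 3.62, 5.53 and 5.70% in Q150 WT and 6.00, 6.81, 8.93 and 6.88% in Q150 HOMO mice. Mutants lay below their WT mice in R6/2 and above them in Q150, with no overlap, but only the Q150 rise of 0.64 was called (adjusted p = 0.0101; R6/2 -0.54, adjusted p = 0.0573). The difference was -1.18 ± 0.275 (SE; adjusted p = 0.0109). The R6/2 WT mice lay above all Q150 WT mice, by 0.60 (adjusted p = 0.181), a gap as large as that of -0.58 between the mutants.

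Other members of this set were less even. Lrrc49, a subunit of the enzyme complex that adds glutamates to tubulin, rose by 1.13 in R6/2 against -0.46 in Q150 HOMO, and Rpa1, which binds single-stranded DNA, by 1.05 against -0.60. Fam149b had changes of 0.88 and -0.47, and Asb7, a substrate receptor of a ubiquitin ligase, 0.77 and -0.46. The changes of Banp, a nuclear DNA-binding protein, were -1.15 in R6/2 and 0.48 in Q150 HOMO, and those of Smap1, which regulates small GTPases of membrane traffic, were -0.95 and 0.44. D19Ertd737e (now Fam204a) had changes of -1.17 and 0.55, where R6/2 HD mouse 860 lay above all WT mice at 21.6% while the other HD mice were at 4.89 and 4.38%. In none of these 7 events was the Q150 change called. In Banp, Smap1, Fam149b and Asb7 the wild types of the models did not overlap, with gaps of 1.06, 0.85, -0.69 and -0.72 that were not called and exceeded in size the gaps of -0.57, -0.54, 0.67 and 0.51 between the mutants. Prom1, a membrane glycoprotein of cell protrusions, and Arhgef7, an exchange factor for small GTPases, were called in neither model, with changes of -1.07 and 1.10 and of -0.59 and 0.46, and their differences of -2.17 and -1.05 (adjusted p = 0.0431 for both) were lost when any 1 of 10 of the mice was left out, up to an adjusted p of 0.119 and 0.134. The differences of Rpa1, Asb7 and D19Ertd737e were also lost without any 1 of 4, 8 and 12 mice, up to 0.0847, 0.105 and 0.130.

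Of the 150 events called in Q150 HOMO and not in R6/2, 5 were among the 108 that differed between the models, in Ttc3, Pam, Snx14, Dync1i2 and Kif2a. For Ttc3, an E3 ubiquitin ligase encoded in the mouse counterpart of the Down syndrome region, exclusion of event 9430 (chromosome 16, positions 94624975 to 94632439) was 9.80% ± 1.07 (SD, n = 3) in R6/2 WT mice and 7.95% ± 2.22 (SD, n = 3) in R6/2 HD mice. It was 9.66% ± 0.753 (SD, n = 5) in Q150 WT mice and 3.70% ± 0.851 (SD, n = 4) in Q150 HOMO mice, with no overlap between the last of these groups. The changes were -0.36 and -1.50, and the difference was 1.13 ± 0.253 (SE; adjusted p = 0.00814). Clec16a, a regulator of mitophagy with an alternative 5' splice site, was called in both models and fell by 0.32 in R6/2 and by 0.89 in Q150 HOMO, a difference of 0.57 (adjusted p = 0.0316) that was lost when any 1 of 8 of the mice was left out (up to 0.0969). A second Ttc3 event (8606) had a difference of -1.27 (adjusted p = 0.0472), lost when any 1 of 12 of the mice was left out (up to 0.160). Ttc3 and Clec16a were picked after their values had been seen.

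Genes of the cytoskeleton and of molecular motors held 9 called events among 97 (9.28%, against 6.43% of all events), with 7 positive and 2 negative and a list median of 0.13. Fmnl1, a formin that nucleates actin filaments, had the largest positive difference of the list. Exclusion of event 3810 (chromosome 11, positions 103059092 to 103059796) was 30.1, 33.7 and 26.2% in R6/2 WT and 56.2, 83.9 and 96.7% in R6/2 HD mice, and 27.6, 35.5, 33.2, 27 and 24.8% in Q150 WT and 45.0, 58.8, 47.9 and 42.7% in Q150 HOMO mice. Mutants lay above their WT mice in both models, the HD mice spread widely and R6/2 HD mouse 860 lay within the range of the HOMO mice. The fit takes a common spread for all groups, which does not reflect the wider one of the HD mice. The rise was 3.77 in R6/2, and the Q150 change of 1.18 was not called (adjusted p = 0.0811). The difference of 2.59 ± 0.761 (SE; adjusted p = 0.0431) was lost when any 1 of 12 of the mice was left out, up to an adjusted p of 0.0983. It was 1.42 without R6/2 HD mouse 869 and 3.68 without mouse 860.

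Ank1 and Dst belong to the same list, as does Spna2 (now Sptan1), which encodes a spectrin of the membrane skeleton. Spna2 rose by 2.03 in R6/2 and by 0.82 in Q150 HOMO, a difference of 1.22 (adjusted p = 0.0400) lost when any 1 of 11 of the mice was left out (up to 0.116). The negative members of the list were a pair of motor genes. Outside the list the actin regulators Ankrd15 (now Kank1) and 2610204M08Rik (now Inf2) were also negative at -1.96 and -1.38. They were picked after their values had been seen, and the directions of all such genes outside the list were not counted. Exclusion of Dync1i2, an intermediate chain of cytoplasmic dynein, was 69.2% ± 2.84 (SD, n = 3) in R6/2 WT, 63.5% ± 0.323 (SD, n = 3) in R6/2 HD, 61.4% ± 3.80 (SD, n = 5) in Q150 WT mice and 67.3% ± 2.74 (SD, n = 4) in Q150 HOMO mice, a difference of -0.75 (adjusted p = 0.0316). Kif2a, a kinesin that shortens microtubules, had 33.7% ± 1.59 (SD, n = 3) in R6/2 WT mice, 29.8% ± 3.50 (SD, n = 3) in R6/2 HD mice, 30.6% ± 3.92 (SD, n = 5) in Q150 WT mice and 37.5% ± 2.79 (SD, n = 4) in HOMO mice, a difference of -0.71 (adjusted p = 0.0452). Both were lost when any 1 of 8 or 11 of the mice was left out, up to adjusted p of 0.101 and 0.141.

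Ion channels, receptors and transporters held 5 called events among 53 (9.43%, against 6.43%), 4 positive and 1 negative, with a list median of 0.15. Grik1, a kainate receptor subunit that passes glutamate signals, had the most positive difference of all events but low totals of 30 to 100 per mouse. Exclusion of event 4617 (chromosome 16, positions 87896596 to 87914398) was 13.1, 42.1 and 17.6% in R6/2 WT and 66.7, 65.9 and 62.2% in R6/2 HD mice, and 31.3, 26.1, 22, 33.8 and 44.2% in Q150 WT and 20.7, 28.9, 34.8 and 29.5% in Q150 HOMO mice. R6/2 HD mice were the highest of all, R6/2 WT mice spread widely and the Q150 groups overlapped. The difference was 2.81 ± 0.615 (SE; adjusted p = 0.00708).

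Among the other channel genes, exclusion of Kcnt1, a sodium-activated potassium channel, was 37.9% ± 2.16 (SD, n = 3) in R6/2 WT mice, higher at 65.0% ± 0.667 (SD, n = 3) in R6/2 HD mice, and 40.3% ± 5.53 (SD, n = 5) in Q150 WT mice and 46.7% ± 4.53 (SD, n = 4) in Q150 HOMO mice. The difference was 1.23 (adjusted p = 0.00288). Atp2b3, a calcium pump of the plasma membrane, had 45.2% ± 3.64 (SD, n = 3) in R6/2 WT mice and 22.3% ± 4.11 (SD, n = 3) in R6/2 HD mice but 37.2% ± 4.80 (SD, n = 5) in Q150 WT mice and 37.0% ± 6.16 (SD, n = 4) in HOMO mice, a difference of -1.51 (adjusted p = 0.00525). The R6/2 groups did not overlap for either gene and the Q150 groups did.

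Kinases and phosphatases held 2 called events among 84 (2.38%, against 6.43%), both positive, with a list median of -0.02. Braf, a kinase of the MAP kinase cascade, had exclusion of 78.9, 76.8 and 81.6% in R6/2 WT and 89.2, 90.0 and 90.5% in R6/2 HD mice (event 7237; chromosome 6, positions 39598485 to 39601603). Q150 WT mice had 84.1, 82.2, 82.7, 83.3 and 81.0% and Q150 HOMO mice 81.9, 82.6, 79.3 and 83.6%. The R6/2 groups lay apart and the Q150 groups overlapped. The difference was 1.31 ± 0.188 (SE; adjusted p = 0.000115), while that of a mutually exclusive exon pair of Mapk9, another MAP kinase, was 0.47 (adjusted p = 0.0457) and was lost when any 1 of 11 of the mice was left out (up to 0.125).

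Transcription and chromatin genes held 4 called events among 93 (4.30%, against 6.43%), all negative, with a list median of -0.15. The list was matched to the symbols as listed. It therefore missed the called genes Suv420h1 (now Kmt5b), G9a (now Ehmt2) and Aof2 (now Kdm1a), whose current names fit it. The share and direction of the list are incomplete for that reason. Called genes of the same kind that the list did not count, gathered after their values had been seen, lay on both sides. Positive were Hp1bp3 (1.26), Bbx (1.24), Taf1b (1.15), Aof2 (1.11), Skil (0.77) and Camta1 (0.49). Negative were Ccar1 (-1.97), Banp (-1.64), Suv420h1 (-1.56), G9a (-0.93) and Hmgn3 (-0.59). Of these calls those of Taf1b, Aof2, Ccar1 and Banp held without any 1 mouse, and the other 7 were lost without at least 1 (up to an adjusted p of 0.122). Of the listed genes Taf1 is described above, and Zfp62, a zinc finger protein, had changes of -0.66 and 0.38 and a difference of -1.03 (adjusted p = 0.0336) that was lost when any 1 of 9 of the mice was left out (up to 0.101). Centring each mouse on its median event raised the median difference of all events by 0.08, and the direction of a list median closer to 0 than this depends on the scaling. Endocytosis and vesicle traffic genes held 4 among 68 (5.88%, near the 6.43% of all events), 2 in each direction, with a list median of -0.10. Ddef1 (now Asap1), with a difference of -1.06 (adjusted p = 0.0316), fits this list by its current name and was not counted. Sytl2, which tethers secretory vesicles, rose by 1.42 in R6/2 and by 0.47 in Q150 HOMO, a difference of 0.95 (adjusted p = 0.00840). The sorting nexins Snx16 and Snx14 differed by 1.18 (adjusted p = 0.0211) and -0.84 (adjusted p = 0.0204), both lost without R6/2 WT mouse 6 and also without mouse 3 for Snx16 and mouse 4 for Snx14, up to 0.0717 and 0.0654. The event listed for Rab42 differed by -1.49 (adjusted p = 0.0431), with totals of 50 to 102 per mouse and a loss of the call when 1 of 11 mice was left out (up to 0.160). Its listed chromosome is not that of the gene Rab42, so the gene behind it is uncertain.

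Adhesion, guidance and surface receptor genes held 6 called events among 78 (7.69%, near the 6.43% of all events), 2 positive and 4 negative, with a list median of -0.06. Nrxn3, a presynaptic adhesion molecule, had exclusion of 80.0% ± 1.51 (SD, n = 3) in R6/2 WT mice and 88.0% ± 1.76 (SD, n = 3) in R6/2 HD mice, and of 79.3% ± 2.94 (SD, n = 5) in Q150 WT mice and 79.4% ± 1.30 (SD, n = 4) in HOMO mice, a difference of 0.87 (adjusted p = 0.0111). Neo1, a receptor for netrins, had changes of -0.58 and 0.19 and a difference of -0.77 (adjusted p = 0.0316), lost when any 1 of 7 of the mice was left out (up to 0.0776). By the symbols as listed, the ubiquitin, chaperone and autophagy genes held no called event among their 54, with a median of -0.01. The list does not include Ttc3, Rbbp6, Asb7 and Clec16a, genes of the same kind with called events. An event listed as 1-Mar was called at -1.33 (adjusted p = 0.00116) and remained so without any 1 mouse. That symbol matched no gene, may stand for a March gene that the list covers, and was not counted. Huntingtin and its associated proteins held 1 among 10 events (10%, against 6.43%), in Ahi1, a protein of the primary cilium that binds huntingtin-associated protein. Exclusion of Ahi1 was 32.0% ± 3.17 (SD, n = 3) in R6/2 WT mice and 69.4% ± 0.656 (SD, n = 3) in R6/2 HD mice, and 35.8% ± 4.47 (SD, n = 5) in Q150 WT mice and 56.6% ± 8.71 (SD, n = 4) in HOMO mice. Its difference of 1.03 (adjusted p = 0.0316) was lost when any 1 of 6 of the mice was left out (up to 0.0825). Htt, Tardbp and Mettl3 had no event in the shared set.

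Mag, the myelin-associated glycoprotein of oligodendrocytes, was the single one of the 108 events called between the wild types, and it was not called between the mutants. Exclusion of its event (3991; chromosome 7, positions 31684717 to 31685656) was 35.2, 42.9 and 42.2% in R6/2 WT and 20.8, 17.8 and 13.7% in R6/2 HD mice, and 19.3, 21.3, 20.5, 25.5 and 21.4% in Q150 WT and 15, 18.0, 22 and 13.9% in Q150 HOMO mice. R6/2 WT mice stood above all others, and the mutants of both models overlapped. The change was -1.68 in R6/2 and -0.42 in Q150 HOMO, a difference of -1.26 ± 0.250 (SE; adjusted p = 0.00369). The wild types differed by 1.28 (adjusted p = 0.000292) and the mutants by 0.03 (adjusted p = 0.956). The Q150 change was not called in HOMO mice (adjusted p = 0.0568) but was in HET mice against the same WT mice, at -0.87 (adjusted p = 0.00277), and the Q175 HOMO mice changed by -0.93 (adjusted p = 1.19e-06) against their own. Mag was 1 called event among 7 of the oligodendrocyte and myelin list (14.3%, against 6.43%), whose median was -0.04. Of 7 oligodendrocyte markers, Mag and Mbp had events, and together they took 1.12 to 1.36% of all junction counts in R6/2 WT, 0.926 to 1.34% in R6/2 HD, 0.730 to 1.17% in Q150 WT and 0.747 to 1.30% in Q150 HOMO mice. Syt1, the one neuronal marker of 6 with an event, took 2.89 to 3.41% in R6/2 WT and 2.34 to 2.79% in R6/2 HD mice, which did not overlap, and 3.04 to 3.68% in Q150 WT and 2.70 to 3.07% in Q150 HOMO mice, which did. The part of these amounts in the result was not tested. The events cannot tell fewer cells of a type from less RNA per cell.

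Further large differences were seen outside the lists. Fis1, a protein of mitochondrial fission, had exclusion of 6.13, 5.24 and 5.77% in R6/2 WT and 26.2, 23.0 and 10% in R6/2 HD mice, and 6.11, 5.25, 5.22, 6.71 and 8.99% in Q150 WT and 6.58, 5.77, 7.46 and 8.27% in Q150 HOMO mice (event 4313; chromosome 5, positions 137429460 to 137440962). The HD mice lay above all others, 1 of them closely, and the difference was 1.76 ± 0.381 (SE; adjusted p = 0.00664). Odf2, a protein of centriole appendages and sperm tails, had 18.4% ± 0.330 (SD, n = 3) and 6.47% ± 2.30 (SD, n = 3) in R6/2 WT mice and HD mice and 15.4% ± 2.99 (SD, n = 5) in Q150 WT mice and 16.1% ± 2.71 (SD, n = 4) in HOMO mice, a difference of -1.85 (adjusted p = 0.00261). Ccar1, a transcriptional coactivator, changed by -1.79 in R6/2 and by 0.18 in Q150 HOMO, a difference of -1.97 (adjusted p = 0.00664). BC068281 differed by -1.99 (adjusted p = 0.00989), with R6/2 HD mice at 12.7, 17.4 and 41.8% and all other mice between 47.2 and 65.3%.

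Less secure calls came from 6 more of the largest differences. Atpbd4 (now Dph6, of the diphthamide pathway) differed by -2.62, Nipa2, a magnesium transporter, by -2.16, Ankrd15 by -1.96, Pfkp, a phosphofructokinase of glycolysis with a mutually exclusive exon pair, by -1.90, the gene listed as pcm-1 by -1.78 and 8030451F13Rik (now Mybpc1) by 2.19. Their adjusted p values were 0.0433, 0.0153, 0.0452, 0.0212, 0.0316 and 0.0255. The call of Nipa2 was lost without R6/2 WT mouse 3 (0.0611), that of Pfkp without R6/2 WT mouse 4 or R6/2 HD mouse 868 (up to 0.0654), and that of 8030451F13Rik without R6/2 WT mouse 3 or 6 or R6/2 HD mouse 860 (up to 0.0653). The calls of Atpbd4, Ankrd15 and pcm-1 were lost without any 1 of 10, 12 and 9 mice (up to 0.105, 0.136 and 0.0940). The difference of Atpbd4 was -1.35 without R6/2 HD mouse 869 and -3.3 without mouse 860.

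Where both models were called in the same direction, the R6/2 change was the larger in 188 of 233 events, and 19 of the 233 differed between the models. Beside Hnrpdl, Celf4 and Spna2, the largest were BC042720 and Sars, a cytosolic seryl-tRNA synthetase. Exclusion of BC042720 was 5.16% ± 0.188 (SD, n = 3) in R6/2 WT mice and 21.2% ± 1.83 (SD, n = 3) in R6/2 HD mice, and 7.00% ± 0.976 (SD, n = 5) in Q150 WT mice and 10.6% ± 0.805 (SD, n = 4) in HOMO mice, a difference of 1.62 (adjusted p = 0.000109). For Sars it was 58.9% ± 1.13 (SD, n = 3) in R6/2 WT mice, 85.9% ± 2.01 (SD, n = 3) in R6/2 HD mice, 65.0% ± 3.59 (SD, n = 5) in Q150 WT mice and 78.6% ± 2.28 (SD, n = 4) in HOMO mice, a difference of 1.12 (adjusted p = 0.00173). Mutants lay above their WT mice in both models for both genes.

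Of the other events called in both models with the same direction, Rbbp6 and Gripap1 differed most clearly. Exclusion of Rbbp6, an E3 ubiquitin ligase linked to 3' end processing, was 37.4% ± 1.38 (SD, n = 3) in R6/2 WT mice and 64.7% ± 1.28 (SD, n = 3) in R6/2 HD mice, against 41.4% ± 1.34 (SD, n = 5) in Q150 WT mice and 51.2% ± 0.864 (SD, n = 4) in HOMO mice. It rose by 1.62 and 0.57, a difference of 1.04 (adjusted p = 4.15e-05). Gripap1, a protein of AMPA receptor recycling, rose by 2.00 and 1.11, a difference of 0.90 (adjusted p = 0.000838). The mutants of both models lay apart from their WT mice for both genes. These genes, and those of the next paragraph, were picked after their values had been seen.

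Among the remaining events called in R6/2 only, Zdhhc16, a palmitoyl transferase, had changes of 1.30 and -0.26 and a difference of 1.56 (adjusted p = 0.000576). Aof2 (now Kdm1a), a histone demethylase, rose by 1.26 in R6/2 against a Q150 change of 0.15, a difference of 1.11 (adjusted p = 0.00814). Srp9, of the signal recognition particle, had exclusion near 1.39% in R6/2 WT, 3.45% in R6/2 HD, 1.25% in Q150 WT and 1.49% in Q150 HOMO mice, a difference of 1.09 (adjusted p = 0.00288). Nf2, which encodes the tumour suppressor merlin, and Dvl1, of the Wnt pathway, rose by 1.08 and 1.07 in R6/2, and differed from Q150 HOMO by 0.95 (adjusted p = 0.00261) and 0.89 (adjusted p = 0.00351). The Q150 changes of these genes ranged from -0.26 to 0.25 and none was called. Toward inclusion, Os9, a lectin of protein quality control in the endoplasmic reticulum, fell by 0.85 in R6/2 with a Q150 change of -0.06, a difference of -0.80 (adjusted p = 0.00189). The short form of a mutually exclusive exon pair of Mef2a, an activity-dependent transcription factor, fell by 0.63 in R6/2 with a Q150 change of 0.11, a difference of -0.75 (adjusted p = 0.00266). For each of these 7 genes the R6/2 groups did not overlap, the Q150 groups did, and the difference remained called without any 1 mouse.

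Some strongly changed events did not differ by the test. Exclusion of Mlx, a transcription factor that responds to glucose, was 17.8% ± 3.21 (SD, n = 3) in R6/2 WT mice and 49.8% ± 7.22 (SD, n = 3) in R6/2 HD mice, and 18.7% ± 4.90 (SD, n = 5) in Q150 WT mice and 36.3% ± 5.21 (SD, n = 4) in HOMO mice. The difference of 0.87 had a 95% interval from 0.08 to 1.65 and an adjusted p of 0.189. Mtap7d2 (now Map7d2), a microtubule-associated protein, rose by 1.44 in R6/2 and by 0.66 in Q150 HOMO, a difference of 0.79 (0.24 to 1.33; adjusted p = 0.0800). Tsr1, a ribosome assembly factor, rose by 2.33 and 1.92, a difference of 0.41 (-0.54 to 1.37; adjusted p = 0.680). The intervals, which are not adjusted for the number of events, hold only positive values for Mlx and Mtap7d2 and both signs for Tsr1. None of them excludes a larger change in R6/2.

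**Figure D5:**
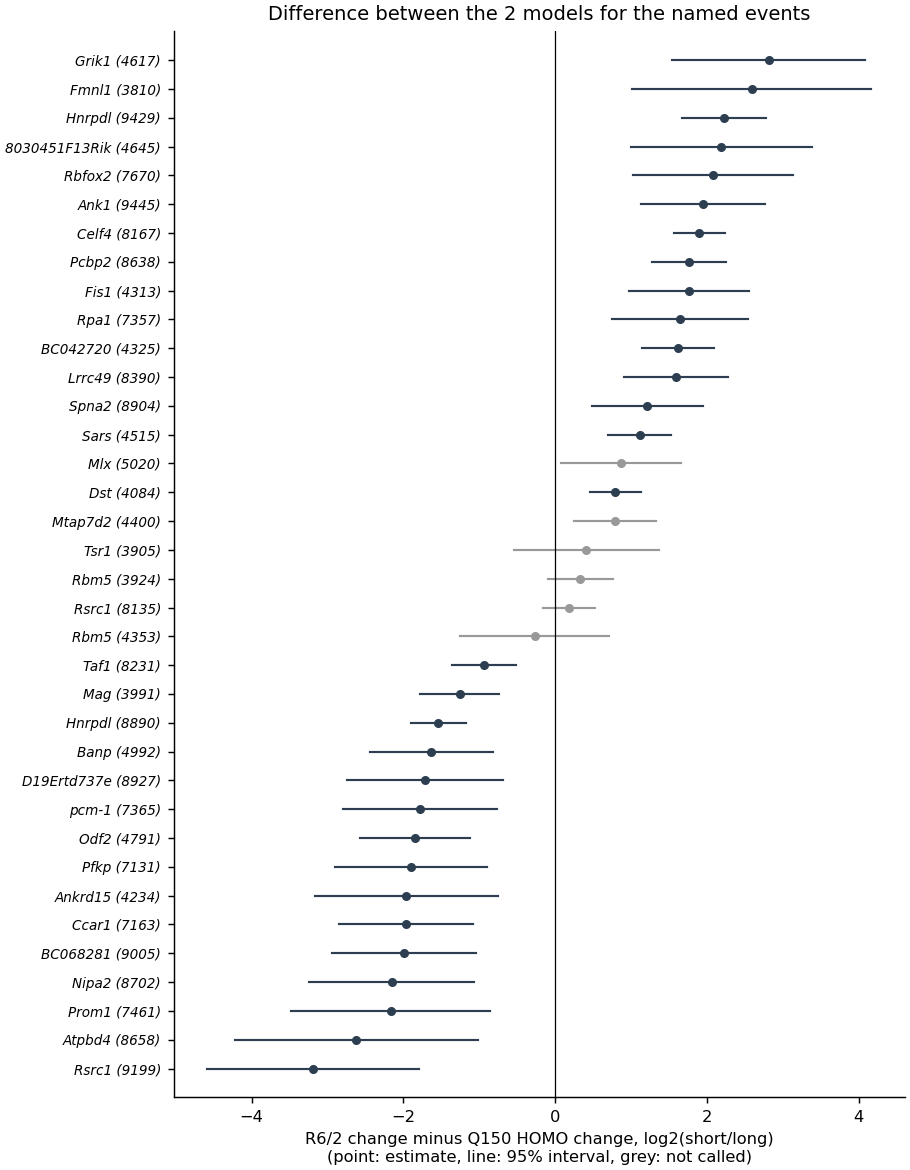
R6/2 change minus Q150 HOMO change of the log2 short-to-long ratio for 36 events (gene symbol and event number), with points for estimates and lines for 95% intervals. Dark points mark 30 events called over all 1680, at both ends of the axis and for Dst and Taf1 nearer 0, and grey points mark 6 events that were not called, in Mlx, Mtap7d2, Tsr1, Rbm5 and Rsrc1.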

How the data were processed

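RASL-seq libraries of cortical RNA were made by the authors from 1 hemisphere per mouse. The authors deposited, per event and mouse, a short and a long read count without normalization; digit commas in them were stripped, and the unit was entered as other for that reason. The aligner is not given in the sources used here. Molecular identifiers are not mentioned, and PCR copies may therefore count as reads. The smallest junction count was 4. The labels name the genome build mm10, but 1629 of 1633 events with a matched gene lie on its chromosome while 272 overlap it in GRCm38, so no annotation or sequence was attached to the listed positions. Older symbols were matched through RefSeq synonyms.

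Groups came from the labels, with Q150 taken as 150 glutamines in the genotype field. The knock-in WT mice, a single group there, were split by the event list of their files. The labels do not state separate litters or extractions, so p-values cover the spread between these mice. For each event, log2((short + 0.5)/(long + 0.5)) of the 15 mice was fitted with 4 group means (limma 3.58.1, R 4.3.3), with a variance trend on the counts, a mean count of at least 10 (which removed no event) and Benjamini-Hochberg adjustment over all events at 0.05. The fit takes a common spread for all groups of an event. Its SE and p-values therefore do not reflect the wider spread of R6/2 HD mice in events such as those of Rsrc1, Fmnl1 and D19Ertd737e. On simulated counts for the R6/2 minus Q150 comparison with 1680 events, limma recovered 51% of 200 changed events (17.9, 49.3 and 86.4% at log2 differences of 0.5, 1 and 2), and 1.92% of calls were false. The simulation gave all groups of an event the same spread, as the fit assumes. These shares therefore do not carry over to events in which the R6/2 HD mice spread more widely. HET and Q175 mice were fitted within their own file sets. The comparison, events and gene lists were chosen with earlier results of these data known. Gene lists were matched to the symbols as listed, so genes under older or altered symbols were missed and the list counts are incomplete. Named events were the 12 largest differences of each sign that kept their sign without any 1 mouse, all events called in both models with opposite signs, up to 12 with opposite estimates, up to 6 called in both models with the same sign, the events of 11 fixed genes, and up to 2 per direction in each gene list. Alternatives were other count minimums, pseudocounts, variance models, scalings, sets of mice and a quasi-binomial model. Figures were drawn with matplotlib 3.10.9.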

Additional observations from a re-analysis of the deposited data

Results flagged for a closer look

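The count of 108 events and the named events are listed because the R6/2 and Q150 changes differed by the interaction test. Of the named events, the most negative were Rsrc1 (-3.2), Atpbd4 (-2.62), Prom1 (-2.17), Nipa2 (-2.16), BC068281 (-1.99), Ccar1 (-1.97), Ankrd15 (-1.96), Pfkp (-1.90), Odf2 (-1.85), pcm-1 (-1.78), D19Ertd737e (-1.72), Banp (-1.64) and Hnrpdl event 8890 (-1.54). Smaller negative differences of named events were those of Atp2b3 (-1.51), Rab42 (-1.49), Smap1 (-1.39), Mag (-1.26), Pam (-1.18), Arhgef7 (-1.05), Zfp62 (-1.03), Taf1 (-0.94), Snx14 (-0.84), Neo1 (-0.77), Dync1i2 (-0.75) and Kif2a (-0.71). The largest positive differences of named events were those of Grik1 (2.81), Fmnl1 (2.59), Hnrpdl event 9429 (2.22), 8030451F13Rik (2.19), Rbfox2 (2.08), Ank1 (1.94), Celf4 (1.90), Pcbp2 (1.76), Fis1 (1.76), Rpa1 (1.65), BC042720 (1.62) and Lrrc49 (1.59). The remaining named positive ones were those of Fam149b (1.35), Braf (1.31), Kcnt1 (1.23), Asb7 (1.23), Spna2 (1.22), Snx16 (1.18), Sars (1.12), Ahi1 (1.03), Sytl2 (0.95), Nrxn3 (0.87), Dst (0.79) and Mapk9 (0.47).

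In 4 of 112 groups of Q150 mice tested, 1 mouse lay far from the others (Dixon's test, which marks about 1 in 20 groups by chance). Q150 HOMO mouse 35 had an exclusion of 73.6% for Spna2 and of 94.2% for Rpa1, Q150 HOMO mouse 34 had 39.5% for Rbfox2, and Q150 WT mouse 404 had 95.1% for Asb7. The R6/2 groups of 3 were not tested, and in them R6/2 HD mouse 860 stood apart from the other HD mice for Rsrc1 event 9199 (2.35% against 0.228 and 0.221%) and D19Ertd737e (21.6% against 4.89 and 4.38%).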

How the results depend on the processing

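All 108 differences kept their sign without any 1 mouse, and 49 kept their call. The count of differing events ran from 67 to 113 over those 15 fits, that of opposite calls from 1 to 5 and that of opposite estimates from 26 to 56. Without the variance trend 57 events differed and 25 had opposite estimates. Centring each mouse gave 6 opposite calls. The series of Q150 mouse numbers as a term gave 5 opposite calls and 70 opposite estimates. The low or the high series alone, added after seeing the data, gave 61 or 62 differing events, and the high series 1 opposite call and 28 opposite estimates; all 108 signs were kept in both. Fewer mice entered these last fits. No other planned setting moved these counts by over 1.5 times. The mean exclusion difference was 0.513 points as a share of summed counts and -1.21 as a median over events, and ran from -0.160 to 0.142 without 1 mouse. Of 1429 alternative values of named events, 1172 kept side and sign, 254 lost the call, 2 gained it and 1 changed sign (Rbm5 event 4353, from -0.534 to 0.128 without 1 mouse, the latter without R6/2 WT mouse 3). No paired analysis was possible because the groups share no replicate numbers that link mice. Depth is lowest for Rbfox2 (totals of 23 to 83) and Grik1 (30 to 100).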
